A study of Mus musculus with 4 samples.

Results

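The genes described here encode developmental transcription factors of the Sox, Olig, Nkx, Pax, Lhx, Isl, Irx, Lmx1 and Pou families. They were taken by name, as the entries of the 3 deposited m6A peak tables whose gene name begins with one of these family names followed by its number, and the naming rule uses no measured value. The rule leaves out 1 name of this form, which is not analysed here and enters no count below. The rule found 56 genes among the 13554 gene names with a peak in either list, 52 of them protein-coding and 4 transcripts that overlap or run antisense to a member (*Sox2ot*, *Nkx2-2os*, *Lhx1os* and *Irx3os*). The CCI list held 153 of their peaks in 52 genes, out of 33556 peaks, and the sham list held 154 in 55 genes, out of 34406. The table of differential peaks held 12 of its 4812 entries in 10 of the genes. In the RefSeq table of GRCm38.p6, 93 genes carry names that the rule takes and 78 of them are protein-coding, so that 26 protein-coding members had no peak in either list.

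The RNA came from spinal cords of C57BL/6J mice 6 to 8 weeks of age. In the chronic constriction injury (CCI) group loose silk ligatures had been placed around the sciatic nerve, and in the sham group the nerve was exposed without ligature. Tissue from both groups was taken on day 7 and studied by MeRIP-seq, in which fragmented poly(A) RNA is captured with an m6A-specific antibody (the IP library) and set against uncaptured fragments (the input library). Each group had 1 IP and 1 input library, and the number of mice behind a library is not given, so differences below lack replicates and are described without p-values. The tables hold no read counts, the depth of the libraries is therefore unknown, and no error can be put on a single fold enrichment. Spinal cord tissue holds many cell types. Fewer cells of a type and less RNA per cell cannot be told apart in it. Defining markers of neurons, oligodendrocytes, astrocytes, microglia and endothelium all had peaks in both lists. Of the 3 muscle markers looked for none had a peak, and of the 3 markers of nociceptive sensory neurons *Scn10a* alone had one, in sham. Of the 2 Schwann cell markers used here *Prx* had peaks in both lists and *Pmp22* had none, and the part of nerve root tissue in the values of *Sox10* and *Pou3f1*, which Schwann cells also express, was not tested.

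N6-methyladenosine is laid down on the A of short motifs in messenger RNA, most often near the stop codon and in the 3′-UTR, and it is read by proteins that act on the decay, splicing and translation of the transcript. The families studied here lay out the spinal cord in the embryo, where combinations of homeodomain and bHLH factors divide progenitors into domains. Many remain in use in the adult, such as Olig1, Olig2 and Sox10 in oligodendrocytes, Sox2 in ependymal and glial cells, and Lmx1b, Lhx1, Lhx5 and Pax2 in dorsal horn interneurons, the cells that relay or gate pain signals. Many of them are confined to small subsets of cells.

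The m6A writer complex favours an A inside the letters GGAC. A genome sequence was not used here, so the letters under a peak could be read only where a peak reached the RefSeq window of 250 bases before to 50 bases after a transcript start. Peaks of their own gene covered part of 11 member windows, 8 of them in both lists, and in 4 of these genes a GGAC on the gene's strand lay inside the peaks of both lists. The sites are printed to show the sequence under these peaks, with GGAC in capitals and 12 bases on either side, on the gene's strand and in GRCm38.p6 coordinates. The *Nkx2-2os* peaks were annotated to the 3′-UTR in both lists, in a stretch where *Nkx2-2* runs on the opposite strand. Whether the captured RNA there was of the printed strand is not known. From the RefSeq start the printed GGAC lay at -69 and -18 in *Irx3*, -66 and 21 in *Sox13*, 29 in *Pou3f3* and -65 in *Nkx2-2os*. Those with a negative position lie before that start. Starts in the deposited annotation can differ: there the *Sox13* peak in CCI began 60 bases after the transcript start.
Irx3 chr8:91801708-91801735, minus strand: tcccagcgtccaGGACtgcgaaggagcc
Irx3 chr8:91801657-91801684, minus strand: tggggtgaggggGGACgcagcgagggga
Sox13 chr1:133424263-133424290, minus strand: ggccctggctttGGACccagcgggctcg
Sox13 chr1:133424177-133424204, minus strand: agtccgggagccGGACtgcggaagggaa
Pou3f3 chr1:42695784-42695811, plus strand: tctgagagggagGGACggagagcgaact
Nkx2-2os chr2:147184006-147184033, plus strand: actgctgggcctGGACcagggggtgtgc
Across these windows 8 sites were found, of which 2 closely spaced further ones in *Irx3* are not printed, and 2 of the 8 had the longer form GGACT (1 in *Irx3* and 1 in *Sox13*). The letters are common: 65.6% of all 32851 windows in the RefSeq table held GGAC on the gene's strand, against 54 of the 82 member windows (65.9%), and 26.1% of all windows held GGACT. In *Pou3f2*, *Sox4*, *Sox8* and *Pou6f1* the 50 to 64 window bases under the peaks of both lists held no GGAC, and over all windows 18.9% held one in the 50 bases after the start.

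The strength of a peak is given as the authors' fold enrichment, the ratio of IP over input. The peaks of these factors were stronger than the lists as a whole. Their median fold enrichment was 9.38 in CCI and 12.8 in sham, against 5.73 and 5.70 over all peaks. The same order held within each transcript region. In the 5′-UTR the member median was 13.6 in CCI and 15.1 in sham, against 8.51 and 8.21 over all 5′-UTR peaks. In exons it was 8.66 and 8.94, against 4.69 and 4.78, and in the 3′-UTR 8.64 and 12.8, against 5.92 and 5.81. The number of peaks per gene did not stand apart, with a median of 2 for the members and for all genes in both lists. Member peaks covered a median of 270 exonic bases in both lists, against 211 in CCI and 239 in sham over all peaks. Some of the fold enrichments recur many times. The 12 most frequent values of each list (from 5.21 to 14.1 in CCI and from 3.49 to 18.6 in sham) were carried by 15% of the member peaks in CCI (23 of 153, 95% Wilson interval 10.2 to 21.5%, counting error only) and by 18.2% in sham (28 of 154, 12.9 to 25.0%). Over all peaks these shares were 7.43% and 9.79%. What sets these values, and their part in the higher medians of the members, was not tested. Without the peaks at these values the member medians were 8.34 and 10.4.

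**Figure D1:**
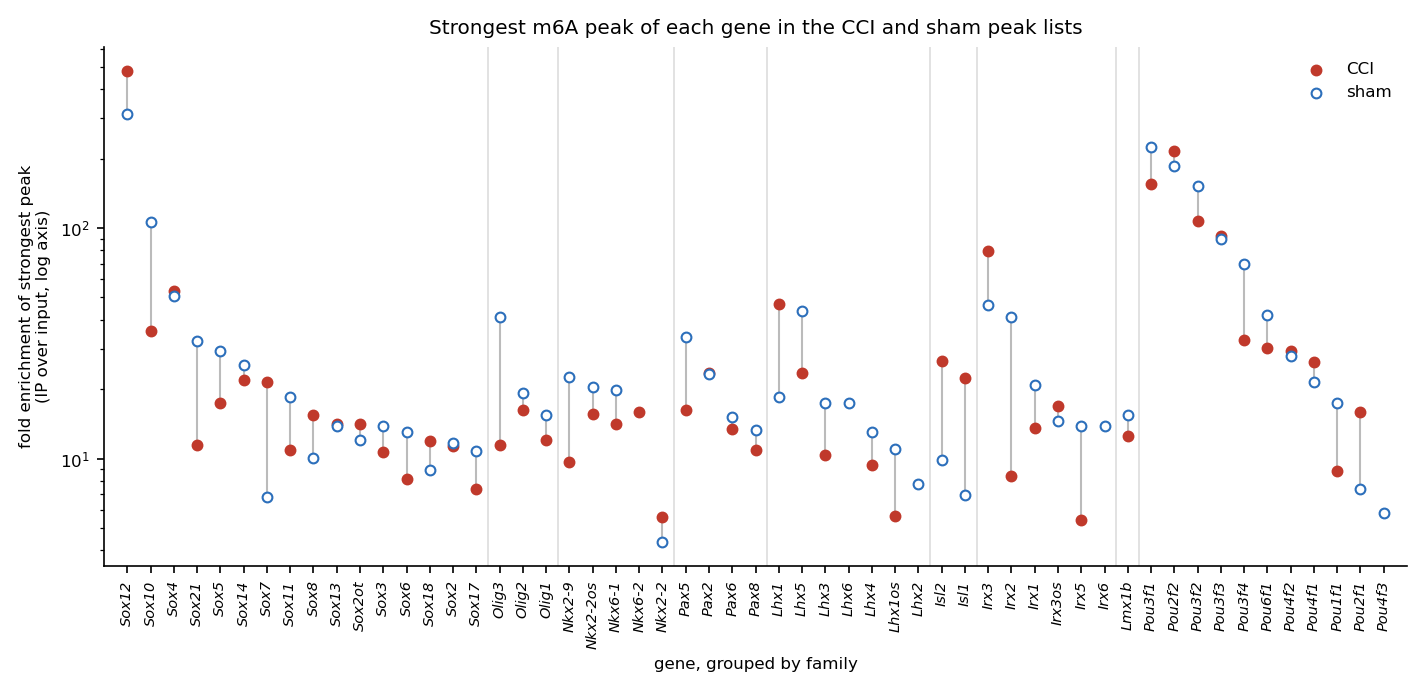
Fold enrichment of the strongest peak of 55 of the 56 genes (log axis) in CCI (filled red) and sham (open blue), ordered within families separated by grey lines; a gene with 1 symbol had a peak in that list alone. *Sox12* stands highest at 482 in CCI and 312 in sham, followed by *Pou2f2* and *Pou3f1*, and most other genes lie between 5 and 50.

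*Sox12*, a SoxC factor of neuronal and other progenitors, had the strongest peak of all members in both lists. Its 5′-UTR entry was at 482 in CCI (chr2:152396240-152397914, 1675 exonic bases) and at 312 in sham (chr2:152396270-152397973, 1704 bases), and 0.107% and 0.238% of the peaks of the lists were at or above these values. Nearly the same bases were entered again over a spliced model of 1410 bases, at 149 in CCI and 80.2 in sham. The 2 entries share 1398 bases in CCI and 1410 in sham, and their fold enrichments differ 3.23-fold and 3.89-fold within a list. The fold enrichment of one stretch of RNA thus varied by more between gene models than between CCI and sham, where both entries were within 2-fold. *Sox4*, *Sox14* and *Pou6f1* also had overlapping entries of this kind, with ratios between them of 1 to 1.53.

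The next highest values in CCI were those of *Pou2f2*, *Pou3f1*, *Pou3f2* and *Pou3f3*, and in sham those of *Pou3f1*, *Pou2f2*, *Pou3f2* and *Sox10*. The Pou3 genes encode the Brn and Oct6 factors of neural and Schwann cells. *Pou3f1* (Oct6) had 1 long peak in each list, at 156 in CCI (1850 bases) and 224 in sham (1731 bases). *Pou3f2* (Brn2) had its strongest peak at the transcript start, at 107 in CCI and 152 in sham. *Pou3f3* (Brn1) carried the longest member peak, which began at the transcript start and covered 4080 bases in sham at 89.5, and 0.0145% of the sham peaks were as long or longer. In CCI the same stretch was entered as a peak of 2640 bases at 92.5 and a peak of 1321 bases in the 3′-UTR at 26.2. *Pou2f2* (Oct2), a factor of B cells and of neurons, had 7 peaks in each list, and its strongest, in the 3′-UTR with the same borders in both lists (chr7:25091900-25092709), was at 215 in CCI and 186 in sham.

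*Pou6f1* had the most peaks over both lists together, 8 in CCI and 12 in sham. It was followed by *Sox4* with 9 and 5, *Pou2f2* with 7 and 7, *Lmx1b* with 6 and 6, and *Nkx6-1* with 5 and 6. The extra *Sox4* peaks in CCI came in part from stretches that sham held as 1 peak. At the low end stood *Sox2ot* with an exon peak at 2.10 in CCI and 1.3 in sham, a *Sox2* entry of 61 bases at 1.45 in CCI, and 4 overlapping *Sox4* and *Sox12* 3′-UTR entries in CCI between 1.69 and 2.13.

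The families differed in how many of their protein-coding genes had a peak, among the names that the rule takes. All 3 Olig and both Isl genes had one, as did 15 of 18 Sox, 12 of 16 Pou, 6 of 8 Lhx, 5 of 6 Irx, 4 of 9 Pax, 4 of 14 Nkx and 1 of 2 Lmx1 genes. *Pax3* and *Pax7* (dorsal progenitors), *Sox1*, *Lhx9*, *Nkx2-1* (forebrain and lung) and *Pou5f1* (the pluripotency factor Oct4) were among the genes without a peak. A gene with no peak may be unmethylated or too little expressed to be called, and the tables do not separate these.

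By the annotation of the tables, member peaks lay in the 3′-UTR in 53.6% of cases in CCI (82 of 153, 45.7 to 61.3%) and in 50.0% in sham (77 of 154, 42.2 to 57.8%), near the 49.8% and 48.9% of all peaks. The 5′-UTR held 22.9% of the member peaks in CCI (16.9 to 30.1%) and 23.4% in sham (17.4 to 30.7%), above the 14.7% and 16.1% over all peaks. Exons held 23.5% (17.5 to 30.8%) and 26.6% (20.3 to 34.1%), below the 35.5% and 35.1% over all peaks. In both lists the member intervals for the 5′-UTR and for exons did not reach the share of all peaks, although peaks of one gene are not independent and the intervals cover counting error only. A single unspliced block made up 85% and 85.1% of the member peaks, against 75.4% and 74.7% of all peaks. A label of this kind covers the whole peak. The *Pou3f1* peak, for example, was annotated to the 5′-UTR in CCI and to the 3′-UTR in sham although 93.6% of the bases of both peaks together were shared.

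**Figure D2:**
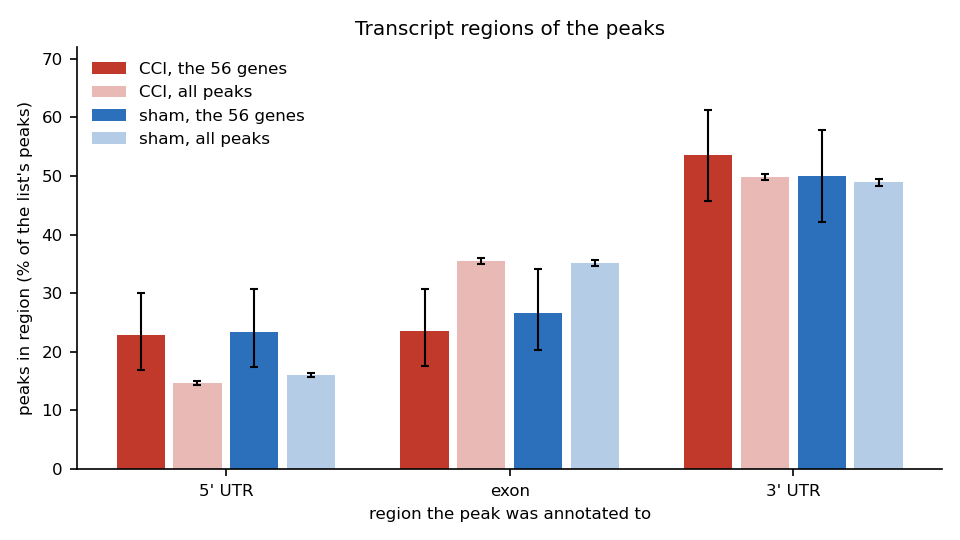
Share of peaks (%) annotated to the 5′-UTR, exon and 3′-UTR for the 56 genes (dark bars) and for all peaks (pale bars) of the CCI (red) and sham (blue) lists, with 95% Wilson intervals. The members' 5′-UTR bars, 22.9% and 23.4%, stand above those of all peaks, and their exon bars, 23.5% and 26.6%, stand below.

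To compare the CCI and sham lists, their peaks were paired where each was the other's best partner by shared exonic bases. By an overlap of at least 1 base, 132 of the 153 member peaks in CCI had a partner in sham, and 21 had none (13.7%, 9.16 to 20.1%), against 12.3% of all CCI peaks without a partner. In sham 122 of 154 had a partner and 32 had none (20.8%, 15.1 to 27.9%), against 16.1% of all sham peaks. The peaks without a partner were short. All 21 in CCI and 30 of the 32 in sham covered fewer than 200 bases, with a median of 120 in both lists, against 301 in CCI and 315 in sham for the peaks with a partner. Of the 32 in sham, 19 carried one of the 12 most frequent values, and 5 of the 21 in CCI did. The same counts over all peaks without a partner are not given here, so these are not set apart as a trait of the members.

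At the level of genes 51 of the 56 were in both lists, 52 being in CCI and 55 in sham. Over all genes the CCI list held 12408 and the sham list 12907 of the 13554 in either list. *Lhx2*, *Lhx6*, *Irx6* and *Pou4f3* (Brn3c) had a peak in sham alone, of 210, 150, 91 and 120 bases and at 7.75, 17.4, 13.9 and 5.81. The last 3 of these fold enrichments are among the 12 most frequent values of the sham list. *Nkx6-2*, a factor of myelinating oligodendrocytes, had a peak in CCI alone by name, at 16. Its bases were in the sham list too, as part of a longer 3′-UTR peak of the neighbouring gene *Inpp5a* at 17.6 (-0.14). The tables give the strand of the annotated gene and not that of the reads, and peaks of genes that overlap on opposite strands cannot be told apart from them.

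In 119 pairs at least 1 peak was a member's. Their median log2 ratio of fold enrichment, CCI over sham, was 0.02, against 0.03 over all 27380 pairs, and 59 of the 119 were lower in CCI. The middle 50% of the member pairs ran from -0.52 to 0.47, and that of all pairs from -0.37 to 0.43. The ratio was at least 2-fold higher in CCI in 12 pairs (10.1%, 5.86 to 16.8%), against 8.59% of all pairs, and at least 2-fold lower in 14 (11.8%, 7.14 to 18.8%), against 7.25% of all pairs. Both intervals reach the share of all pairs, the second only just. The 26 pairs came from 21 of the 52 genes with a pair, and *Sox10* and *Irx3* had pairs on both sides. The fold enrichments of the lists were made against different inputs, and a ratio between them carries the errors of 4 libraries.

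**Figure D3:**
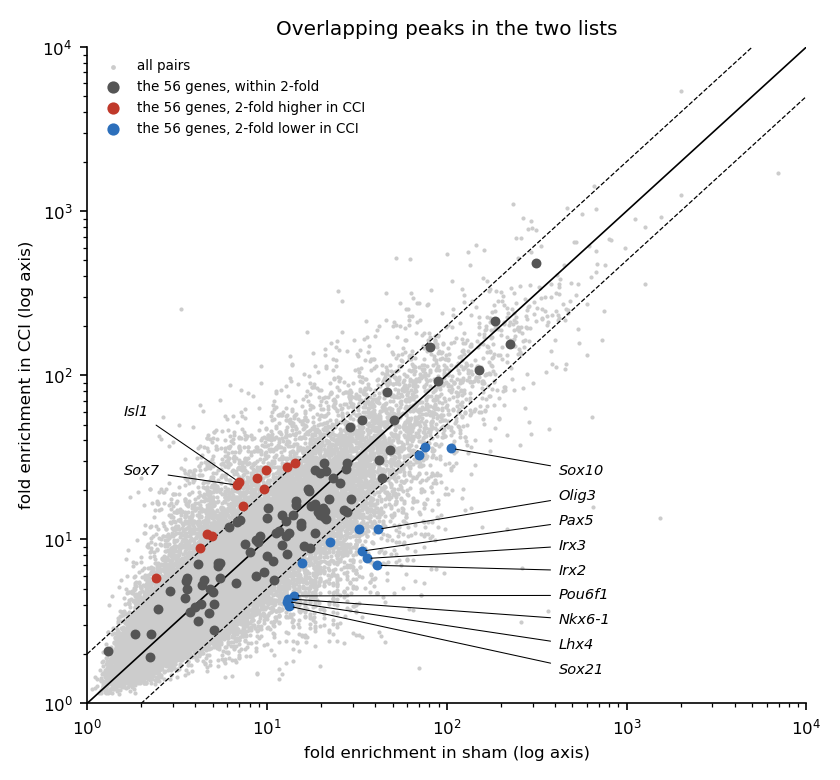
Fold enrichment of each pair of overlapping peaks in sham (horizontal) and CCI (vertical), both on log axes, for all 27380 pairs (grey) and for the 119 pairs of the 56 genes. The solid line marks equal values and the dashed lines 2-fold; 12 member pairs lie above the upper dashed line (red) and 14 below the lower one (blue), and the rest lie between.

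The pairs that stood lower in CCI were led by the Iroquois genes, homeodomain factors that pattern the neural tube. *Irx2* had an exon peak of 956 bases at 6.94 in CCI and one of 985 bases at 41.1 in sham, a log2 ratio of -2.57, over nearly the same stretch (chr13:72630607-72631842 in CCI). Its 3′-UTR peak was level, at 8.41 and 8.10. *Irx3* had a 3′-UTR peak with the same 239 bases in both lists (chr8:91798673-91798911), at 7.64 in CCI and 36.0 in sham (-2.24). At its 5′ end the order was the other way. The peak over the GGAC sites printed above was at 79.2 in CCI and 46.5 in sham (0.77), and a second 5′-UTR peak was at 10.4 and 4.94 (1.07). *Irx5* was at 5.43 and 6.71 (-0.31), and *Irx3os*, which runs opposite to *Irx3*, at 17.0 and 14.6 (0.22).

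*Olig3*, a bHLH factor of dorsal progenitors, had 1 peak in each list, in the 3′-UTR, at 11.5 in CCI and 41.3 in sham (-1.84). *Pax5*, a factor of B cells and the midbrain border, had an exon peak at 8.47 in CCI and 33.7 in sham (-1.99), but the tables annotate that exon to another gene ID, as they do the other *Pax5* exon peak, which was at 16.2 and 14.5 (0.16). The 3′-UTR peak of *Pax5* was at 15.1 and 26.7 (-0.82). *Lhx4*, a LIM factor of motor neurons, had an exon peak at 4.17 in CCI and 13.0 in sham (-1.64), while its 3′-UTR peak was at 9.38 and 7.55 (0.31). *Nkx2-9*, a floor plate factor, had a 3′-UTR peak at 9.63 and 22.5 (-1.22).

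Of the POU genes, the single *Pou3f4* (Brn4) peak past 2-fold had the same 508 bases in both lists and was at 32.6 in CCI and 70.1 in sham (-1.10). In *Pou6f1* a 3′-UTR peak of 511 bases, again with the same borders, was at 4.52 and 14.2 (-1.65), whereas the other 6 pairs of the gene lay between -0.47 and 0.70. Some POU peaks stood higher in CCI. In *Pou2f1* (Oct1), a widely expressed factor, 2 exon peaks were at 16 and 5.82 in CCI and at 7.36 and 2.41 in sham (1.12 and 1.27), the latter over a sham peak of only 61 bases. A 3′-UTR peak of *Pou2f2* was at 20.3 and 9.68 (1.07), and the 389 bases of a *Pou3f2* 3′-UTR peak were at 29.1 and 14.4 (1.01). Over the 22 pairs of the POU role list the median was 0.00.

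The list of motor and ventral neuron factors (*Isl1*, *Isl2*, *Lhx3*, *Lhx4*, *Irx3* and *Irx5*) had 9 pairs with a median of 0.31, of which 3 were past 2-fold higher in CCI and 2 past 2-fold lower, the *Irx3* 3′-UTR and *Lhx4* exon pairs given above. The LIM factors *Isl1* and *Isl2* held 2 of the 3 higher pairs. *Isl1* had 1 peak with the same 330 bases of the 3′-UTR in both lists (chr13:116299121-116299450), at 22.4 in CCI and 6.97 in sham (1.68). The sham value is among the frequent ones of its list. *Isl2* had a 3′-UTR peak of 297 bases at 26.6 in CCI, paired with a sham peak of 564 bases at 9.88 (1.43). That sham peak also met a CCI peak at 4.86, so the bases that sham held as 1 peak were split in CCI. *Lhx3*, their partner in motor neurons, had a peak of 60 bases at 10.4 in CCI and of 209 bases at 12.8 in sham (-0.30), both annotated to an exon of another gene ID.

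The oligodendrocyte lineage list (*Sox10*, *Sox8*, *Olig1*, *Olig2*, *Nkx2-2*, *Nkx6-2*, *Sox5*, *Sox6* and *Sox13*) had 20 pairs in 9 genes. Of these, 15 were lower in CCI (75%, against 47.8% of all pairs), with a median of -0.27, and 1 was past 2-fold in each direction. These counts depend on the pairing. Further CCI peaks met sham peaks already paired and are not counted, in *Sox10* (-2.83), *Nkx2-2* (-1.87), *Olig1* (-1.13 and -0.65) and *Sox8* (-1.10 and -0.64). The 10 pairs of the oligodendrocyte markers *Mbp*, *Mog* and *Mag* had a median of -0.06, with none past 2-fold. *Sox10*, the factor that drives myelin genes, held both pairs past 2-fold of the lineage list. Its 5′-UTR peak at the transcript start was at 35.8 in CCI (180 bases) and 106 in sham (239 bases, reaching into a second exon), a log2 ratio of -1.57. At the other end of the transcript a 3′-UTR peak of 329 bases was at 27.7 in CCI, paired with a sham peak of 597 bases at 12.9 (1.10). The rest of that sham peak met a second CCI peak at 1.81, so that the higher value in CCI came with a narrower border. The long peak between them was at 9.29 and 12.1 (-0.38).

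*Olig1* had a peak from its transcript start at 12 in CCI (741 bases) and 15.5 in sham (1215 bases) (-0.37), and the remainder of the sham stretch was a separate CCI peak at 7.08. *Olig2*, which commits progenitors to motor neurons and oligodendrocytes, had 3 pairs, at 16.3 and 18.5 (-0.18), 14.6 and 19.2 (-0.40) and 7.14 and 5.49 (0.38). *Sox5* and *Sox6*, SoxD factors that restrain oligodendrocyte maturation, were lower in all 4 of their pairs (-0.33 to -0.93) without reaching 2-fold. *Sox13*, whose 5′ sites are printed above, was level, with 3 pairs from -0.34 to 0.02. *Sox8* had a 5′-UTR peak of the same 301 bases at 15.5 and 10.1 (0.62) and a 3′-UTR pair at 5.99 and 8.64 (-0.53). *Nkx2-2* was at 5.27 and 4.34 (0.28), and its 3′-UTR peak at 5.61 in CCI lay over a stretch that sham assigned to *Nkx2-2os* at 20.5.

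**Figure D4:**
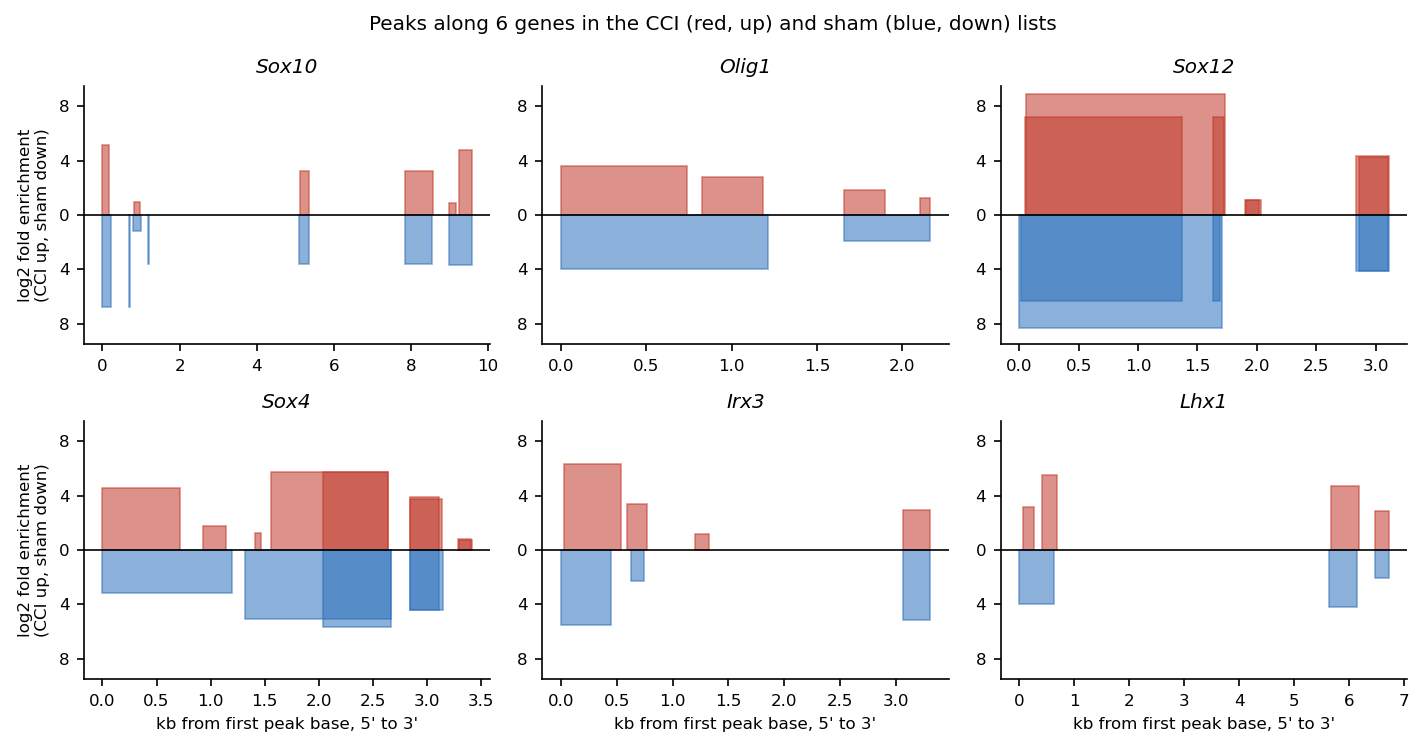
Peaks along *Sox10*, *Olig1*, *Sox12*, *Sox4*, *Irx3* and *Lhx1*, in kb from the most 5′ peak base in the direction of transcription, with the log2 fold enrichment of CCI drawn upward in red and of sham downward in blue; overlapping entries darken. In *Sox10* the sham bar at the start (106) is taller than the CCI bar (35.8), and in *Olig1*, *Sox4* and *Lhx1* stretches that sham held as 1 peak were split in CCI.

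Among the factors of progenitors, astroglia and ependyma, *Sox2* was level in fold enrichment. Its peak had the same 1312 bases in both lists (chr3:34650405-34651716), at 11.3 in CCI and 11.7 in sham (-0.05), although these bases are listed in the differential table. *Sox21*, which counters Sox2-type factors, had a CCI exon peak at 11.5 paired with a sham peak of 928 bases at 32.5 (-1.50), and a second CCI peak at 11.4 lay inside the same sham peak. Another *Sox21* peak was at 3.91 in CCI and 13.3 in sham (-1.77), where the sham entry is named *Gm4675*. The CCI list also holds a *Gm4675* entry at 18.3 that shares 320 bases with the *Sox21* entry at 3.91, so this pair depends on which entry of the stretch is read. *Nkx6-1* had a 5′-UTR pair at 4.34 and 13.1 (-1.59), with 46.3% of the bases of both peaks together shared, and 4 others from -0.49 to 0.90. *Sox3* was at 10.7 and 4.65 (1.20) over peaks of 151 and 420 bases. *Pax6* was level, at 13.4 and 9.97 (0.43) and at 5.00 and 4.83 (0.05). *Sox1*, also on this list, had no peak.

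Of the SoxC genes, *Sox4* had a 5′-UTR peak at 23.5 in CCI (720 bases) and 8.80 in sham (1200 bases, which met a second CCI peak at 3.31), a log2 ratio of 1.42. Its strongest stretch, over the 3′-UTR, had 2 overlapping entries in each list, at 53.3 and 50.7 (0.07) over 596 and 626 bases and at 53.3 and 33.8 (0.66) over 1080 and 1350 bases. *Sox11* had an exon peak at 7.12 and 15.7 (-1.14) and 3 other pairs between -0.77 and 0.33. All 4 *Sox12* pairs were somewhat higher in CCI, from 0.20 to 0.89, over 2 stretches that each have 2 entries.

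The dorsal horn interneuron genes had 20 pairs in 7 genes, with a median of 0.24. Of these, 7 were lower in CCI, against 47.8% of all pairs, and none was past 2-fold, where 8.59% of all pairs were higher and 7.25% lower. *Lmx1b*, which specifies excitatory dorsal horn neurons, had 5 pairs from -0.38 to 0.52. *Pax2*, a factor of inhibitory neurons, was level at its strongest peak, at 23.5 and 23.2 (0.02), and *Pax8* lay at -0.29 and -0.07. *Lhx5* was lower in both pairs, with its long 3′-UTR peak at 23.5 in CCI and 43.6 in sham (-0.89). *Lhx1*, which acts with Lhx5, was higher in both 3′-UTR pairs (0.50 and 0.77). At its 5′ end the sham list held 1 peak of 629 bases at 16, and CCI held 2 shorter ones within or across it. Both CCI peaks shared 210 bases with the sham peak. The pairing rule, which takes the shared part of the joined bases, chose the shorter one, at 9.08 (-0.82). The other, of 270 bases, was at 46.9, the strongest *Lhx1* peak in either list. Paired with the sham peak instead, that peak would be past 2-fold higher in CCI. The absence of pairs past 2-fold among the dorsal horn genes thus depends on this choice. *Pou4f1* (Brn3a) was higher in all 3 of its pairs, from 0.29 to 0.65, and *Pou4f2* (Brn3b) in both of its pairs, at 0.07 and 0.90.

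The SoxF genes, which act in endothelium, had 6 pairs, of which 5 were higher in CCI, with a median of 0.58. *Sox7* held both that passed 2-fold, a 3′-UTR peak at 21.4 and 6.79 (1.66) and an exon peak at 8.86 and 4.26 (1.06). In the exon pair 27.6% of the bases of both peaks together were shared. *Sox18* was at 11.9 and 6.13 (0.96) over the same 271 bases of its 5′-UTR and at 9.61 and 8.94 (0.10). *Sox17* was at 7.42 and 10.8 (-0.54) and at 2.64 and 2.28 (0.21). The 7 pairs of the endothelial marker genes *Cldn5*, *Pecam1* and *Flt1* had a median of 0.02, with 1 past 2-fold, also higher in CCI. The remaining pairs belonged to no role list beyond those given above. *Irx1* was at 13.6 in CCI and 20.9 in sham in its 5′-UTR (-0.62) and level in an exon (0.07). *Sox14*, a factor of V2b interneurons, was at 21.9 and 25.6 (-0.23). *Pou1f1*, a pituitary factor, had 1 short peak in each list, at 8.86 and 17.4 (-0.97), both among the frequent values. *Lhx1os* was at 5.63 and 11.0 (-0.97), *Nkx2-2os* at 15.6 and 20.5 (-0.39), and the 3 pairs of *Sox2ot*, the transcript that spans *Sox2*, lay between 0.22 and 0.69. The role lists were chosen with earlier results of these data known, and none of these medians was tested.

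**Figure D5:**
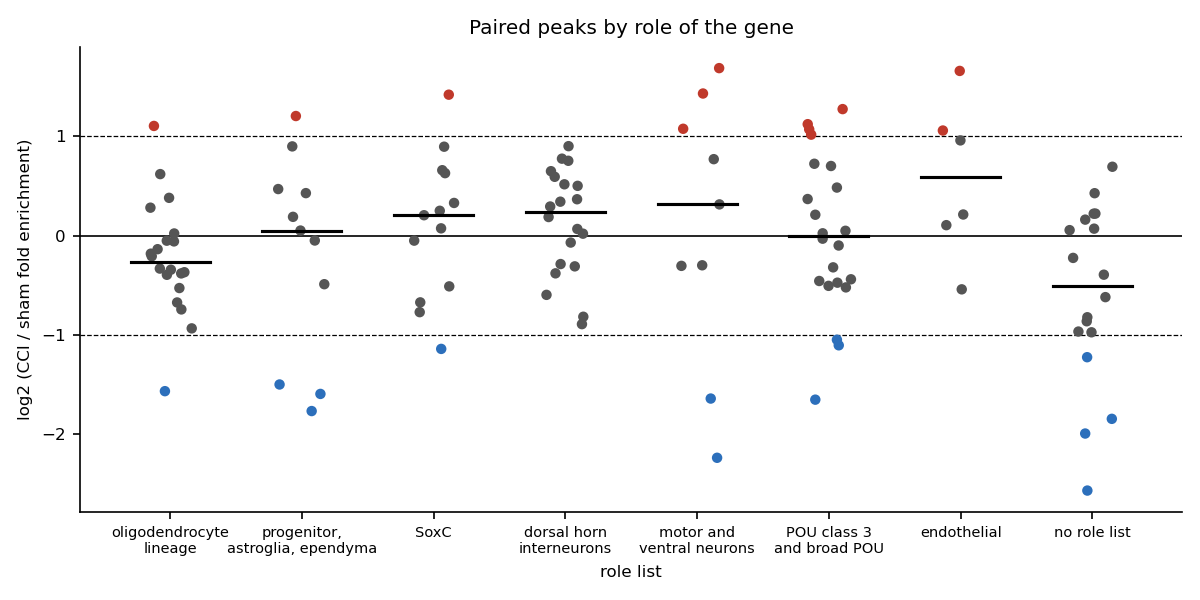
Log2 ratio of fold enrichment, CCI over sham, of the 119 pairs by the role list of their gene (each point 1 pair, black bars the medians, dashed lines 2-fold, red higher and blue lower past it). The oligodendrocyte median lies at -0.27 and the endothelial median at 0.58. The dorsal horn median lies at 0.24 with no pair past 2-fold, which depends on which of 2 *Lhx1* peaks in CCI is paired. The horizontal scatter within a list has no meaning.

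The borders of the peaks set limits on these ratios. Only 19.3% of the member pairs, 23 of 119, had the same start and end in both lists, as did 19.1% of all pairs. Of the 93 member pairs within 2-fold, 73 met no further peak of the other list (78.5%), and the share over all pairs is not given here. Of the 14 pairs lower in CCI, 12 met no further peak (85.7%), and of the 12 higher ones 8 met none (66.7%). The 4 others (*Sox10*, *Isl2* and *Sox4*, where a sham peak was split in CCI, and *Sox7*, where a CCI peak met 2 in sham) are those in which a narrower peak had the higher value or a longer one met several. Of the 103 member pairs with at least 50% of both peaks shared, 9 were higher in CCI (8.74%, 4.67 to 15.8%), against 8.08% of all such pairs, and 12 were lower (11.7%, 6.79 to 19.3%), against 6.22%. The interval of the lower pairs lies just above the share of all pairs under this overlap and just reaches it under the overlap of 1 base. A frequent value of its list stood on 1 side of 6 of the 26 pairs, those of *Isl1*, *Sox3*, *Sox7* (exon) and *Irx3* (5′-UTR) among the higher and of *Olig3* and *Sox21* (exon) among the lower. The pairs at the same borders past 2-fold were *Isl1*, *Pou2f1* and *Pou3f2*, higher in CCI, and *Irx3*, *Pou6f1* and *Pou3f4*, lower.

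The table of differential peaks holds 2 entries each for *Sox10* and *Pou6f1* and 1 each for *Sox2*, *Sox2ot*, *Sox5*, *Sox17*, *Olig1*, *Olig2*, *Irx2* and *Pou3f1*. Its entries overlapped 16 of the 153 member peaks in CCI (10.5%, 6.54 to 16.3%), against 15.6% of all CCI peaks, and 14 of the 154 in sham (9.09%, 5.49 to 14.7%), against 14.3% of all sham peaks. Of the 26 pairs past 2-fold, 3 overlapped it: the *Irx2* exon peak, the *Sox10* 5′-UTR peak and the *Sox21* pair with *Gm4675*. The same share over all pairs past 2-fold is not given here, so this count is not set apart as a trait of the members.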

How the data were processed

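MeRIP-seq was done on spinal cord RNA of CCI and sham mice, with an IP and an input library for either group. The sources disagree on the software. The methods of the paper name Cutadapt, bowtie, MACS2 and ChIPseeker, the submitters' processing notes name fastp, HISAT2, HOMER, ChIPseeker and GRCm38, and the tables carry column names of exomePeak output. The protocol marks strand, and its use in peak calling is not given in the sources used here.

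The deposited fold enrichment of each peak is a ratio of IP over input made by the authors, with no read counts beside it. The deposited log10 false discovery rate was handled as a score and used only as a filter. Of the table of differential peaks only the positions and gene names were used, and the authors' fold changes and p-values of CCI against sham in it were not.

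Peaks were compared by exonic blocks (at least 1 shared base) and paired as mutual best partners by the shared part of their joined bases. A call is a 2-fold ratio in either direction. Shares have 95% Wilson intervals for counting error only. Member peaks lay over the RefSeq gene of their name in 298 of 307 cases. The members and lists were chosen with earlier results of these data known. The genes named are those with a pair past 2-fold, the 5 with the highest fold enrichment in each list, the 5 with the most peaks, those in 1 list only, and the role lists. Some genes that the rule or the lists would name are not reported here. *Pax3*, *Pax7*, *Lhx9*, *Nkx2-1*, *Pou5f1*, *Sox14* and the overlapping transcripts were named after their values were seen. The pairing steps were checked on simulated lists. Tables were handled with pandas 2.3.3 and numpy 2.4.6 under Python 3.11.15, and figures drawn with matplotlib 3.10.9.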

Additional observations from a re-analysis of the deposited data

How the results depend on the processing

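Of 41 values recomputed under the alternatives, 33 stayed within the counting error of a share, within 1.5 times a count or level, or within 0.1 of the log2 median. Counting each gene and region once lowered the 3′-UTR share in CCI to 43.6%. Taking only the strongest peak of each gene raised the median fold enrichment in CCI to 15.8, against 11.5 over all genes, and moved the median log2 ratio to -0.37. The matching log2 ratio over all genes is not given here, so the -0.37 is not set apart as a trait of the members. Requiring that 50% of both peaks be shared lowered the share of member peaks with a partner to 68.0% in CCI and 66.2% in sham. The same shares over all peaks are not given here. Under this overlap 103 member pairs remained of 119, and 24964 pairs over all peaks of 27380. At 1.5-fold, 27 pairs were higher and 27 lower in CCI, against 18.8% and 16.4% of all pairs. 2 alternatives were chosen after seeing the data. Leaving out peaks at the 12 most frequent values raised the sham share with a partner to 89.7%. It left 97 member pairs, 8 of them 2-fold higher and 12 lower in CCI. Counting overlapping pairs once left 114 member pairs, with 12 higher and 14 lower. The matching shares of all pairs under these 2 alternatives are not given here. The median log2 ratio lay between -0.02 and 0.02 in every alternative except that of the strongest peaks, so its sign was not fixed. Outside the windows at transcript starts GGAC was not searched in the peaks, for want of a genome sequence in this work. No paired analysis was possible because there was a single library of a kind in either group. Without read counts, the depth of a weak peak is unknown, and a gene without a peak cannot be called unmethylated.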

Other observations

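A further 29 factors of spinal cord neurons and glia outside these families were looked up by name, from a list chosen with earlier results of these data known. Of these, 22 had a peak in either list, and their 53 pairs had a median log2 ratio of 0.13, with 7 at least 2-fold higher and 5 at least 2-fold lower in CCI, where 8.59% and 7.25% of all pairs were. *Gata3*, of V2b interneurons, was at 20.8 and 5.11 (2.03). *Meis2* had a 5′-UTR peak at 25.0 and 3.87 (2.69). Lower in CCI were a 5′-UTR peak of *Dbx2*, at 3.61 and 23.2 (-2.68), an exon peak of *Myrf*, the myelin regulatory factor, at 17.3 and 89.5 (-2.37), and 5′-UTR peaks of *Nfib* at 20.6 and 98.8 (-2.26) and of *Maf* at 10.4 and 47.6 (-2.19). *Myrf*, *Nfib* and *Meis2* had pairs within 2-fold as well, *Myrf* had another exon peak at 36.0 and 15.9 (1.18), and *Nfib* had a 3′-UTR peak at 5.01 and 2.12 (1.24). The marker genes of neurons had 18 pairs with a median of -0.12, those of oligodendrocytes 10 with -0.06, those of astrocytes 11 with -0.05, those of microglia 11 with 0.39 and *Prx* of Schwann cells 8 with -0.28, each with at most 1 pair past 2-fold.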
